A study of Mus musculus with 6 samples.

Results

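Nodal and the activins are secreted ligands of the TGF-beta family that bind activin receptors at the cell surface and act through Smad2, Smad3 and Smad4 in the nucleus, where Foxh1 is a DNA-binding partner. Nodal, unlike the activins, needs an EGF-CFC co-receptor such as Tdgf1 (Cripto). The pathway is known for inducing its own secreted antagonists, among them Lefty1 and Lefty2, and for its use by pluripotent stem cells and the early embryo. The 10 genes described here are the ligands Nodal, Gdf3, Inhba and Inhbb, the co-receptor Tdgf1, the secreted antagonists Lefty1, Lefty2, Cer1 and Fst, and the intracellular inhibitor Smad7. They were taken by gene symbol from a table of 25239 genes, and all 10 were found and had enough counts to be among the 15256 genes tested.

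The samples were thyroid organoids derived from 1 line of mouse embryonic stem cells, G4 RosaLuc, which carried the alleles TRE-Nkx2-1-Pax8 and bTg-NES-BrafV637E-ERT2. They were collected at day 31 and measured by bulk RNA-seq. All 3 groups carried the same alleles and had received 5 days of doxycycline (1 µg/ml), which switches on Nkx2-1 and Pax8, then 2 weeks of 8-Br-cAMP and a follicle enrichment step. The cAMP group was kept in 8-Br-cAMP without 4-hydroxytamoxifen, the 4OHT group was given 8-Br-cAMP with 1 µM 4-hydroxytamoxifen (4OHT) for 5 days, and the PD+LY group was given 8-Br-cAMP and 4OHT, with the MEK inhibitor PD0325901 (250 nM) and the PI3K inhibitor LY204002 (5 µM) present for 3 days. 4OHT activates a fusion of BrafV637E, the mouse counterpart of the BRAF mutation of papillary thyroid cancer, whose expression was driven by a thyroglobulin (bTg) promoter and so was meant for thyroid cells alone. The line was grown from isolated clones, wells were pooled for each library, the enrichment left other cell types in place, and the days spent in 4OHT may differ between the 4OHT and PD+LY groups, which limits every comparison of these groups. All 6 libraries carried the Braf fusion, so effects of 4OHT itself and of the active fusion cannot be told apart in them. The 2 inhibitors were present only together, so their effects cannot be separated either. Each group held 2 libraries, and since nothing in the labels says that they came from separate differentiations, the p-values measure the spread between libraries, which may be technical.

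The libraries held 14898409 to 20637959 counts, so that 1 count equalled 0.0486 to 0.0667 CPM (counts scaled to a common library total of 1e+06 with edgeR's TMM factors). A floor of 3 counts, 0.146 to 0.200 CPM, was used for single genes and covers counting error only. Each of 8 thyroid and 13 pluripotency markers exceeded the floor in all 6 libraries. Their summed level was 1075 to 1623 CPM (thyroid) and 4084 to 4086 CPM (pluripotency) in cAMP, 553 to 745 and 4334 to 4463 CPM in 4OHT, and 970 to 1959 and 4387 to 4759 CPM in PD+LY. Most of the thyroid sum was Tg, with 1566 and 1022 CPM in cAMP, 514 and 693 in 4OHT, and 1870 and 907 in PD+LY. The organoids thus contained RNA of pluripotency genes next to that of thyroid genes. In bulk RNA, fewer cells of a type and less RNA per cell cannot be told apart.

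On GRCm38, with GENCODE coordinates of the whole gene, the ligand genes lay at chromosome 10, 61417972 to 61425338 (Nodal), chromosome 6, 122605403 to 122610087 (Gdf3), chromosome 13, 16011851 to 16031621 (Inhba) and chromosome 1, 119415465 to 119422248 (Inhbb). Tdgf1 lay at chromosome 9, 110939603 to 110946158, Cer1 at chromosome 4, 82881751 to 82885148, Fst at chromosome 13, 114452290 to 114458951, and Smad7 at chromosome 18, 75367529 to 75395935. The values are given per gene and do not separate its transcripts.

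Per length, Tdgf1 was the most abundant of the 10 genes in all 3 groups. In cAMP organoids the level per kilobase of annotated exon was 150 ± 22.3 CPM/kb for Tdgf1 (mean ± SD, n = 2), 50.04 ± 5.96 for Lefty1, 33.8 ± 1.95 for Lefty2, 17.6 ± 2.19 for Gdf3 and 15.6 ± 0.378 for Nodal. Below them came Fst at 11.3 ± 0.394 CPM/kb, Smad7 at 8.10 ± 0.166, Cer1 at 6.20 ± 3.44, Inhbb at 4.05 ± 0.423 and Inhba at 1.99 ± 0.163. Gdf3 and Nodal differed by less than the SD of Gdf3, and the libraries of Cer1 overlapped with those of its neighbours Smad7 and Inhbb. In 4OHT organoids Tdgf1 (147 CPM/kb), Lefty1 (18.8) and Gdf3 (18.1) stood highest, with Lefty2 (13.3) and Nodal (9.60) below Gdf3, and Lefty1 and Gdf3 differed by less than the SD of Lefty1 (2.42). In PD+LY organoids Tdgf1 (83.0 CPM/kb), Lefty1 (28.4), Gdf3 (20.7) and Nodal (14.8) were followed by Lefty2 (10.3), and Inhbb (2.71), Inhba (1.08) and Cer1 (0) came last. In the cAMP organoids the transcripts of the antagonists Lefty1 and Lefty2 were thus more abundant, per length, than the ligand they block, and the count of Lefty1 and Lefty2 together was 5.18 and 5.59 times that of Nodal in the 2 cAMP libraries. This ratio was 3.43 and 3.32 in 4OHT and 2.80 and 2.25 in PD+LY, so that it lay in 3 separate ranges.

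In 4OHT against cAMP, 4 of the 10 genes were differentially expressed (DEG, at least a 2-fold change and an adjusted p under 0.05 in edgeR's quasi-likelihood test with Benjamini-Hochberg adjustment over all tested genes), and these were the 4 secreted antagonists Lefty1, Lefty2, Cer1 and Fst, all lower. Of all tested genes 1.51% were DEGs in this direction, 1.17% in the other and 2.67% in either. The wider pathway lists described below hold 8 other genes listed as antagonists outside the cell. That list is broader than secreted inhibitors of Nodal and activins, so it is not matched to the 4 members. None of these 8 was a DEG in this comparison, 1 was higher by adjusted p alone, and their median log2 fold change was -0.02. By adjusted p alone 6 of the 10 passed (5 lower, with Nodal the fifth, and Inhbb higher), beside 8.39% of all tested genes (4.35% lower and 4.04% higher). The median log2 fold change of the 10 genes was -0.37, against -0.0021 over all tested genes, and it does not depend on the value given to Cer1, the lowest. The genes were selected on earlier results of these same libraries, their levels and fold changes in the 3 comparisons, and Lefty1, Lefty2, Fst and Inhbb stand in gene lists that the study drew from them, so the counts and p-values place the genes among all tested genes and are not independent evidence of their direction. "Fell", "lower" and "rose" are used below for an adjusted p under 0.05.

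**Figure D1:**
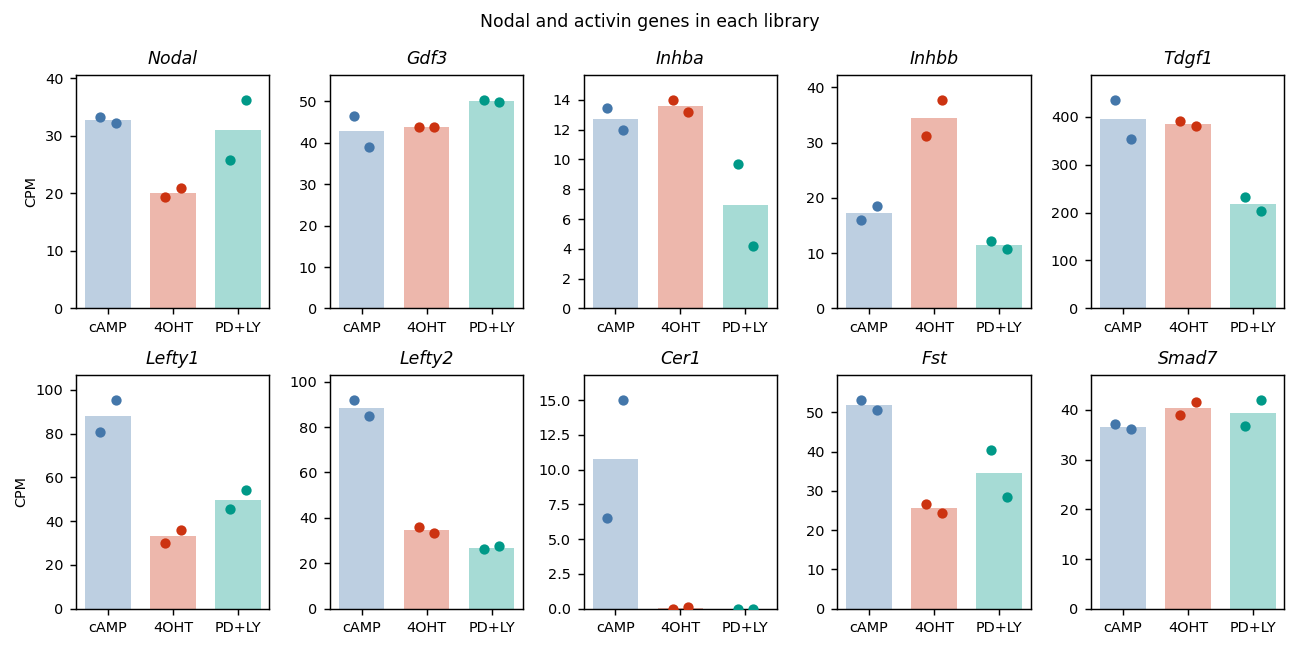
Level of each gene in CPM (vertical axis, starting at 0, with its own range in each panel) in the cAMP, 4OHT and PD+LY groups; points are the 2 libraries of a group and bars their mean. Lefty1, Lefty2, Cer1 and Fst are lower in both 4OHT libraries than in both cAMP libraries, Inhbb is higher, and Smad7 lies between 36.1 and 42.0 CPM throughout.

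Nodal itself had 33.3 and 32.2 CPM in the cAMP libraries, 19.3 and 20.95 CPM in 4OHT, and 25.7 and 36.3 CPM in PD+LY. Both 4OHT libraries lay below all others, while the PD+LY libraries spread around the level of cAMP. Nodal fell in 4OHT by 0.70 on the log2 scale (SE 0.16, edgeR adjusted p = 0.0226) and was higher in PD+LY than in 4OHT by 0.62 (SE 0.16, edgeR adjusted p = 0.0177), under 2-fold in each case. The second difference missed 0.05 without 4OHT library 1, 4OHT library 2 or PD+LY library 2, with a highest edgeR adjusted p = 0.129. PD+LY and cAMP differed by -0.08 (SE 0.16, edgeR adjusted p = 0.754), a value that turned to 0.15 without PD+LY library 1. The fall in 4OHT kept its size over 12 alternative analyses (-0.76 to -0.64), but its adjusted p ran from 0.000188 to 0.207 and was above 0.05 whenever a cAMP or 4OHT library was left out.

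Inhbb and Inhba encode the beta subunits that form activin B and activin A. Inhbb had 15.98 and 18.5 CPM in cAMP, 31.2 and 37.8 in 4OHT, and 12.3 and 10.8 in PD+LY. The groups did not overlap, with 4OHT highest and PD+LY lowest. The rise in 4OHT was 0.998 on the log2 scale (SE 0.15, edgeR adjusted p = 0.00271), just under the 2-fold limit, and Inhbb was a DEG in DESeq2 (1.001) and in edgeR without cAMP library 2 (1.116) or 4OHT library 1 (1.13). Without 4OHT library 2 it was 0.85 (edgeR adjusted p = 0.0535, the highest of its alternatives, which began at 9.3e-08). In PD+LY against 4OHT Inhbb was a DEG, with -1.58 (SE 0.16, edgeR adjusted p = 5.55e-05), and it was lower in PD+LY than in cAMP by 0.58 on the log2 scale (edgeR adjusted p = 0.0196, and 0.155 without cAMP library 2 or 0.0682 without PD+LY library 2). The share of DEGs among all tested genes was 7.26% in PD+LY against 4OHT, with 4.9% lower and 2.35% higher, and 9.24% in PD+LY against cAMP.

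Inhba had 13.5 and 11.99 CPM in cAMP and 14.0 and 13.2 in 4OHT, a difference of 0.10 on the log2 scale (SE 0.28, edgeR adjusted p = 0.873). The PD+LY libraries had 9.68 and 4.18 CPM, both below the other 4 but far from each other. Against 4OHT the log2 fold change in PD+LY was -0.97 (SE 0.29, edgeR adjusted p = 0.0325), which became -1.70 without PD+LY library 1 and -0.49 without PD+LY library 2, so that 1 library decides its size. Against cAMP it was -0.88 (edgeR adjusted p = 0.0448), with -1.60 and -0.39 under the same omissions. The adjusted p stayed under 0.05 in 9 of 12 alternative analyses against 4OHT (highest 0.137) and in 6 of 12 against cAMP (highest 0.156). The ratio of Inhbb to Inhba counts within a library, which was not tested, was 2.22 and 2.87 in 4OHT against 1.19 and 1.54 in cAMP. In PD+LY it was 1.27 and 2.58, overlapping with both other groups.

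Gdf3, a relative of Nodal made by pluripotent cells, had 46.5 and 39.0 CPM in cAMP, 43.8 and 43.9 in 4OHT, and 50.4 and 49.8 in PD+LY. No comparison passed the test, with log2 fold changes of 0.04, 0.19 and 0.23 and edgeR adjusted p-values of 0.878, 0.27 and 0.18 in the order 4OHT against cAMP, PD+LY against 4OHT, then PD+LY against cAMP. The first of these was -0.08 without cAMP library 2. Of the 4 ligands, Nodal was thus lower and Inhbb higher in 4OHT, and Inhba and Gdf3 did not pass the test.

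Tdgf1, the co-receptor, had 435 and 353 CPM in cAMP and 390 and 381 in 4OHT, with the 4OHT libraries inside the range of cAMP. Their log2 fold change was -0.03 (SE 0.11, edgeR adjusted p = 0.895), and 0.13 without cAMP library 1. The PD+LY libraries, at 232 and 203 CPM, were below all others. Tdgf1 fell by 0.82 on the log2 scale against 4OHT (SE 0.11, edgeR adjusted p = 0.000397) and by 0.86 against cAMP (SE 0.11, edgeR adjusted p = 0.000194), and it passed 0.05 in all 12 alternative analyses of both comparisons without reaching 2-fold. The annotated pseudogene Tdgf1-ps1, which has no row in the count table, shares 3.17% of the 100-base windows of the Tdgf1 transcripts, so a small part of its reads may not be assigned with certainty.

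Lefty1 and Lefty2 are extracellular inhibitors of Nodal that lie next to each other on chromosome 1 of GRCm38, Lefty1 at 180935022 to 180938400 and Lefty2 at 180893108 to 180899103, both on the plus strand. Their GENCODE coding sequences have 1104 bases each and are 91.8% identical, with the longest identical run at 140 bases. Of the 100-base windows of their transcripts, 5.85% (Lefty1) and 3.86% (Lefty2) occur in the other gene. Reads from such windows cannot be assigned, but most 100-base windows of each transcript tell them apart. The stretch below is bases 34 to 93 of the coding sequence, counted from the start codon. It was picked as the 60 bases with the most differences, and capitals mark the 18 of 60 positions at which they differ. It is shown because the 2 genes part ways in PD+LY.
Lefty1: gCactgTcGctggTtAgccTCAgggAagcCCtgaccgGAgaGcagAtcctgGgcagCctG
Lefty2: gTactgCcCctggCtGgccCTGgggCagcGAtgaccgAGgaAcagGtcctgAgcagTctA

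Lefty1 had 80.6 and 95.4 CPM in cAMP, 30.0 and 36.0 in 4OHT, and 45.6 and 54.1 in PD+LY. The 3 groups did not overlap, and PD+LY lay between the others. It fell in 4OHT by 1.41 on the log2 scale (SE 0.14, edgeR adjusted p = 0.000124), was higher in PD+LY than in 4OHT by 0.59 (SE 0.14, edgeR adjusted p = 0.0102), and was lower in PD+LY than in cAMP by 0.82 on the log2 scale (SE 0.14, edgeR adjusted p = 0.00103). The difference between PD+LY and 4OHT had an edgeR adjusted p = 0.118 without 4OHT library 1, the highest of its 12 alternatives (the lowest was 7.96e-05).

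Lefty2 had 92.0 and 84.7 CPM in cAMP, 36.0 and 33.6 in 4OHT, and 26.3 and 27.6 in PD+LY. Its level in 4OHT was close to that of Lefty1, but the PD+LY libraries lay below those of 4OHT. The log2 fold change in 4OHT was -1.34 (SE 0.11, edgeR adjusted p = 6.39e-05), and that in PD+LY against cAMP was -1.71 (SE 0.12, edgeR adjusted p = 1.6e-06). Between PD+LY and 4OHT the log2 fold change was -0.37 (SE 0.12, edgeR adjusted p = 0.0401), and 6 of 12 alternative analyses kept an adjusted p under 0.05 (range 0.0185 to 0.244). The ratio of Lefty1 to Lefty2 counts within a library, which no scaling can change, was 0.876 and 1.13 in cAMP, 0.833 and 1.07 in 4OHT, and 1.74 and 1.96 in PD+LY. The ratio was thus higher in both PD+LY libraries than in the other 4. This difference was not tested.

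Cer1 (Cerberus), a secreted protein that binds Nodal and is made by the anterior visceral endoderm of the embryo, changed most. The cAMP libraries held 104 and 308 counts of it (6.54 and 15.0 CPM), the 4OHT libraries 0 and 2, and both PD+LY libraries 0. The 2 cAMP libraries differed from each other more, in proportion, than for any other member, and every 4OHT and PD+LY library was below the floor. Over the group, Cer1 was 188 times as high in cAMP as in 4OHT, with a 95% Clopper-Pearson interval of 51.7 to 1557 for counting error, and at least 152-fold higher in cAMP than in PD+LY when 3 counts over the group are taken as the floor. It was a DEG in both comparisons (edgeR adjusted p = 0.000217 and 2.63e-05) and passed 0.05 in all 11 alternatives that tested it. Both counts in 4OHT came from library 2, and the fitted log2 fold change against cAMP, which depends on the prior count at such levels, was -7.34, -6.54 without 4OHT library 1, -6.61 without cAMP library 2 and -10.63 without 4OHT library 2. Between PD+LY and 4OHT no fold can be given.

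Fst (follistatin) binds activins. It had 53.1 and 50.6 CPM in cAMP, 26.8 and 24.5 in 4OHT, and 40.4 and 28.5 in PD+LY, so that PD+LY lay between the other groups and did not overlap with either. The fall in 4OHT was close to the 2-fold limit, with a log2 fold change of -1.02 (SE 0.16, edgeR adjusted p = 0.00287). It was -0.98 without cAMP library 1 and -0.95 without 4OHT library 2, where the edgeR adjusted p = 0.0514 was the highest of its alternatives and the lowest was 2.82e-10. PD+LY against 4OHT gave 0.43 (SE 0.16, edgeR adjusted p = 0.0725), which was 0.66 without PD+LY library 2 and 0.16 without PD+LY library 1. Against cAMP, PD+LY was lower by 0.59 on the log2 scale (edgeR adjusted p = 0.0158, and 0.0653 without cAMP library 1 or 0.0600 without PD+LY library 2). An unlisted antisense gene, Gm47040, covers 2.51% of the Fst exons, and reads from it cannot be separated since strand was not used in counting.

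Smad7, which blocks activated receptors inside the cell and is induced by TGF-beta family signals in many cells, had 37.2 and 36.1 CPM in cAMP, 39.0 and 41.6 in 4OHT, and 36.7 and 42.0 in PD+LY. Its log2 fold change was 0.14 in 4OHT against cAMP (edgeR adjusted p = 0.538), -0.04 in PD+LY against 4OHT (edgeR adjusted p = 0.865) and 0.10 in PD+LY against cAMP (edgeR adjusted p = 0.572), each with an SE of 0.12. Both 4OHT libraries lay above those of cAMP, and none of the differences passed the test. The middle value changed sign without 4OHT library 2 (0.02) or PD+LY library 1 (0.06).

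**Figure D2:**
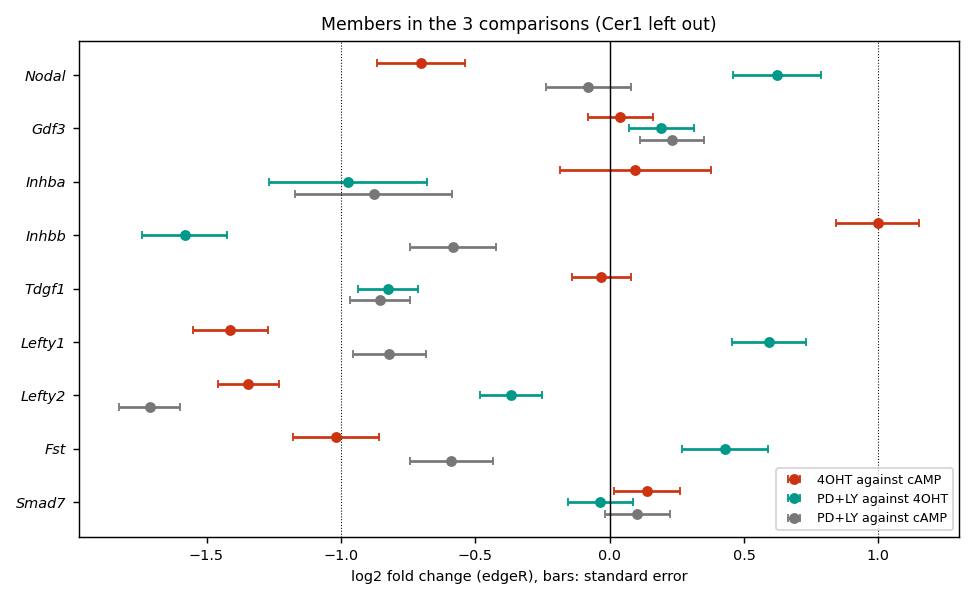
Log2 fold change from edgeR (horizontal axis; bars are the standard error, dotted lines a 2-fold change) of 9 genes in the 3 comparisons, named by colour; Cer1 is left out because its counts in 4OHT and PD+LY are below the floor. Lefty1 and Nodal have opposite signs in 4OHT against cAMP and PD+LY against 4OHT, Lefty2 is negative in both, and Inhbb is positive and then negative.

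In PD+LY against 4OHT 1 of 10 was a DEG, and 6 of 10 passed by adjusted p alone (Nodal and Lefty1 higher, Inhbb, Inhba, Tdgf1 and Lefty2 lower), beside 22.7% of all tested genes (10.7% higher and 12.1% lower). The median log2 fold change was -0.20. In PD+LY against cAMP 2 of 10 were DEGs, Lefty2 and Cer1, both lower, where 6.24% of all tested genes were DEGs lower and 3% higher. By adjusted p alone 7 of 10 were lower and none was higher, where 13.7% of all tested genes were lower, and the median was -0.70. The comparisons share libraries, so their values are given next to each other without a test of their relation.

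The other genes of the pathway were read from lists of 61 ligands, receptors, antagonists, Smads and targets, of which 54 were tested. In 4OHT against cAMP 3 of these 54 were DEGs, all lower, and 10 passed by adjusted p alone (3 higher and 7 lower). In PD+LY against 4OHT 3 were DEGs higher and 2 lower, and in PD+LY against cAMP 6 were higher and 5 lower. The shares of all tested genes given above are the background for these counts.

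**Figure D3:**
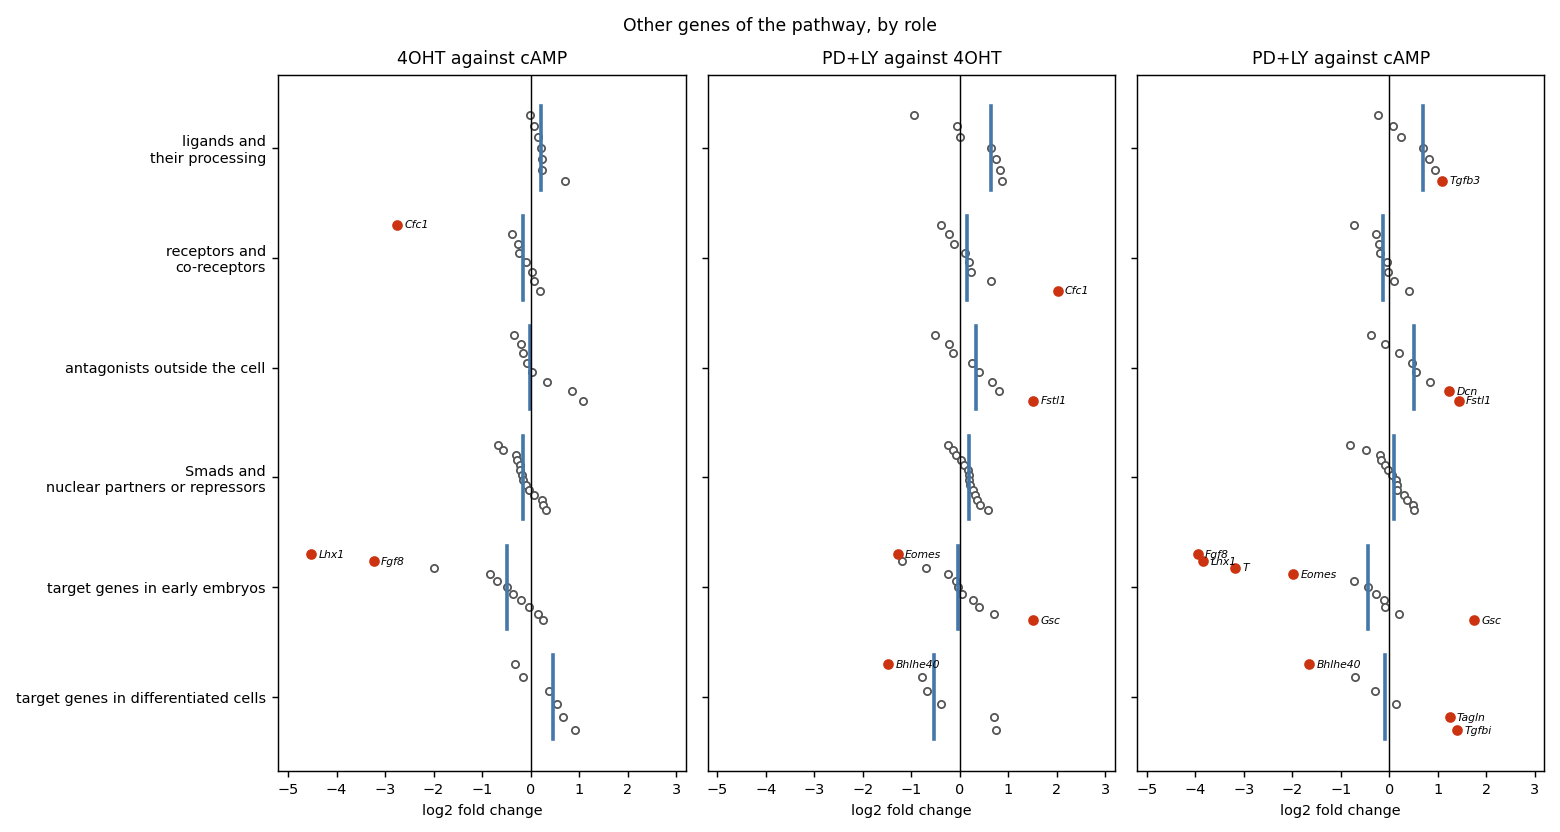
Log2 fold change (horizontal axis) of the 54 other tested genes of the pathway by role, 1 panel for each comparison; filled points are DEGs and are named, open points are not DEGs, and vertical bars are group medians. Most receptors and Smads lie near 0, and the named early embryonic targets Lhx1 and Fgf8 lie far to the left in 4OHT against cAMP.

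Of the receptors and Smads that receive the signal, Acvr1b, Acvr2a, Acvr2b, Smad2, Smad3 and Smad4 were not DEGs in any comparison. The receptor genes Acvr1b (72.7 and 71.6 CPM in cAMP, 73.9 and 78.1 in 4OHT, 67.8 and 71.2 in PD+LY) and Acvr2a did not pass the test, and neither did Smad2, Smad3 or Smad4, whose log2 fold changes lay between -0.28 and 0.20. Acvr2b, a type II receptor, fell in 4OHT by 0.39 on the log2 scale (SE 0.09, edgeR adjusted p = 0.023) and was lower in PD+LY than in cAMP (-0.27, SE 0.09, edgeR adjusted p = 0.0432). Foxh1, the nuclear partner of the Smads, had 42.5 and 52.3 CPM in cAMP, 29.6 and 34.7 in 4OHT, and 24.9 and 29.5 in PD+LY. It was lower in 4OHT than in cAMP (-0.56, SE 0.15, edgeR adjusted p = 0.038) and lower in PD+LY than in cAMP (-0.80, SE 0.15, edgeR adjusted p = 0.00213). Cfc1 (Cryptic), the other EGF-CFC co-receptor, was far less abundant than Tdgf1, with 26 and 65 counts in the cAMP libraries, 2 and 10 under 4OHT, and 24 and 35 under PD+LY. It was a DEG down in 4OHT (-2.75, SE 0.60, edgeR adjusted p = 0.0162) and a DEG up in PD+LY against 4OHT (2.02, SE 0.62, edgeR adjusted p = 0.0359). Both calls were lost without 4OHT library 1 (-2.13 and 1.41, the highest adjusted p being 0.148 and 0.203), the first also without cAMP library 2 (-2.17) and the second without PD+LY library 2 (1.76), and 27.8% of the Cfc1 exons overlap with Prss40 on the other strand.

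Among the early embryonic targets, Lhx1 and Fgf8 were DEGs lower in 4OHT than in cAMP. By adjusted p alone 3 of the 11 tested genes of this list were lower and none was higher, with a median log2 fold change of -0.49. Of all tested genes 4.35% were lower and 4.04% higher. A second list, of targets in differentiated cells, had 6 tested genes and a median of 0.46 in this comparison, with 1 higher and none lower. The third lower gene of the early list was Otx2, with 198 and 183 CPM in cAMP, 108 and 105 in 4OHT, and 142 and 139 in PD+LY. It was lower in 4OHT by less than 2-fold (-0.84, SE 0.09, edgeR adjusted p = 0.000284). Lhx1, a regulator of head and streak development, reached 32 and 78 counts in the cAMP libraries, 2 and 2 under 4OHT, and 6 and 2 under PD+LY (-4.53 in 4OHT, edgeR adjusted p = 0.00264, and -3.83 in PD+LY against cAMP, edgeR adjusted p = 0.000864). For Fgf8, a growth factor gene, the counts were 25 and 96, then 4 and 7, then 4 and 4 (-3.24, edgeR adjusted p = 0.00936, and -3.95, edgeR adjusted p = 0.00105), and the first call was lost without cAMP library 2 (-2.23), 4OHT library 1 (-3.02) or 4OHT library 2 (-3.53). As with Cer1, the second cAMP library held more counts of both genes than the first. Eomes, a T-box factor, had 10.2 and 10.6 CPM in cAMP, 4.87 and 7.90 in 4OHT, and 3.21 and 2.09 in PD+LY, and was a DEG down in PD+LY against 4OHT (-1.28, edgeR adjusted p = 0.0084, lost without 4OHT library 2, -0.88) and against cAMP (-1.97, edgeR adjusted p = 0.000377). Gsc (goosecoid) went the other way, with 0.692 and 1.46 CPM, then 1.73 and 0.933, then 2.55 and 4.91. It was a DEG up in PD+LY against 4OHT (1.503, edgeR adjusted p = 0.0376) and against cAMP (1.75, edgeR adjusted p = 0.0171), the first lost without either 4OHT library (2.00 and 1.11) or PD+LY library 2 (0.95), the second without cAMP library 1 (1.35) or PD+LY library 2 (1.21). The cAMP libraries held 14 and 21 counts of T (Brachyury), those of PD+LY 2 and 2 (-3.18, edgeR adjusted p = 0.0276), a call lost without cAMP library 1 (-3.28), cAMP library 2 (-3.05), PD+LY library 1 (-3.21) or PD+LY library 2 (-3.14) and in DESeq2 (-3.26).

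The remaining DEGs of the wider lists lay in PD+LY. Fstl1, a secreted follistatin-like protein, had a level of 151 ± 2.63 CPM in cAMP, 143 ± 12.1 CPM in 4OHT, and 406 ± 105 CPM in PD+LY (mean ± SD, n = 2), with log2 fold changes of 1.51 against 4OHT (edgeR adjusted p = 4.57e-05) and 1.43 against cAMP (edgeR adjusted p = 3.82e-05). Bhlhe40, a transcriptional repressor, had -1.48 (edgeR adjusted p = 3.82e-05) and -1.65 (edgeR adjusted p = 1.08e-05) in the same comparisons. Against cAMP the PD+LY libraries were also higher for the ligand Tgfb3 (1.10, edgeR adjusted p = 0.000357), the proteoglycan Dcn (1.24, edgeR adjusted p = 0.000115), the matrix protein Tgfbi (1.40, edgeR adjusted p = 5.95e-06) and the smooth muscle gene Tagln (1.24, edgeR adjusted p = 0.000594). Dcn and Tgfbi were already higher in 4OHT than in cAMP, under 2-fold (0.84 and 0.66, edgeR adjusted p = 0.00609 and 0.0040). In PD+LY against 4OHT Tgfbi was higher (0.74, edgeR adjusted p = 0.000684), while Dcn did not pass the test (0.40, edgeR adjusted p = 0.0689). Tgfb3 and Tagln were under 2-fold without cAMP library 1 (0.94 and 0.98) or PD+LY library 1 (0.92 and 0.98), and 67.9% of the Tagln exons and 12.4% of those of Tgfb3 overlap with other genes. Fstl1, Dcn and Tgfbi are also matrix genes, and Dcn is itself one of the 9 fibroblast and mesenchyme markers. The summed level of these 9 was 1186 to 1289 CPM in cAMP, 2235 to 2354 in 4OHT and 4102 to 4829 in PD+LY, with all 9 above the floor in every library. The rise lay in the collagen genes Col1a1, Col1a2 and Col3a1 and in Postn, with Dcn, all DEGs higher in PD+LY than in cAMP (Col3a1 2.44, edgeR adjusted p = 3.85e-08). The receptor gene Pdgfrb was instead a DEG lower in PD+LY (-1.26 against 4OHT and -1.06 against cAMP), the transcription factor gene Twist1 was a DEG lower against 4OHT (-1.03), and Pdgfra and Lum, at -0.13 and 0.18 against cAMP, did not pass the test. The part of this list in the rises above was not tested.

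Nodal, Lefty1, Lefty2, Tdgf1 and Gdf3 are known to be expressed by pluripotent cells, so the levels of the 13 pluripotency markers are set beside them. In 4OHT against cAMP the markers had a median log2 fold change of 0.09, 2 of 13 were higher and 2 lower by adjusted p, and Fgf5 was the only DEG (-3.14, SE 0.33, edgeR adjusted p = 0.000238). Of all tested genes 4.04% were higher and 4.35% lower by adjusted p, and 2.67% were DEGs. Pou5f1, the central pluripotency factor, had 0.16 (edgeR adjusted p = 0.388), and Nanog had 0.30 (edgeR adjusted p = 0.102). Lefty1, Lefty2 and Nodal were lower in 4OHT, where the summed level of these markers was 4334 to 4463 CPM, against 4084 to 4086 in cAMP. Dppa5a held the largest share of that sum and was higher in 4OHT (0.33, edgeR adjusted p = 0.0224), as was Klf4 (0.43, edgeR adjusted p = 0.0146). Besides Fgf5, Dnmt3b was lower in 4OHT (-0.93, edgeR adjusted p = 0.000466). The part of a change in pluripotent cells in the falls of Lefty1, Lefty2 and Nodal was not tested. In PD+LY against 4OHT the marker median was 0.09 and Dnmt3l was the only DEG (-1.32, edgeR adjusted p = 4.96e-05). Fgf5, Dnmt3b and Dnmt3l, genes known for the primed or formative state, were the 3 DEGs down in PD+LY against cAMP, where 6.24% of all tested genes were. Nanog was higher in that comparison by 0.89 (edgeR adjusted p = 9.4e-05).

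**Figure D4:**
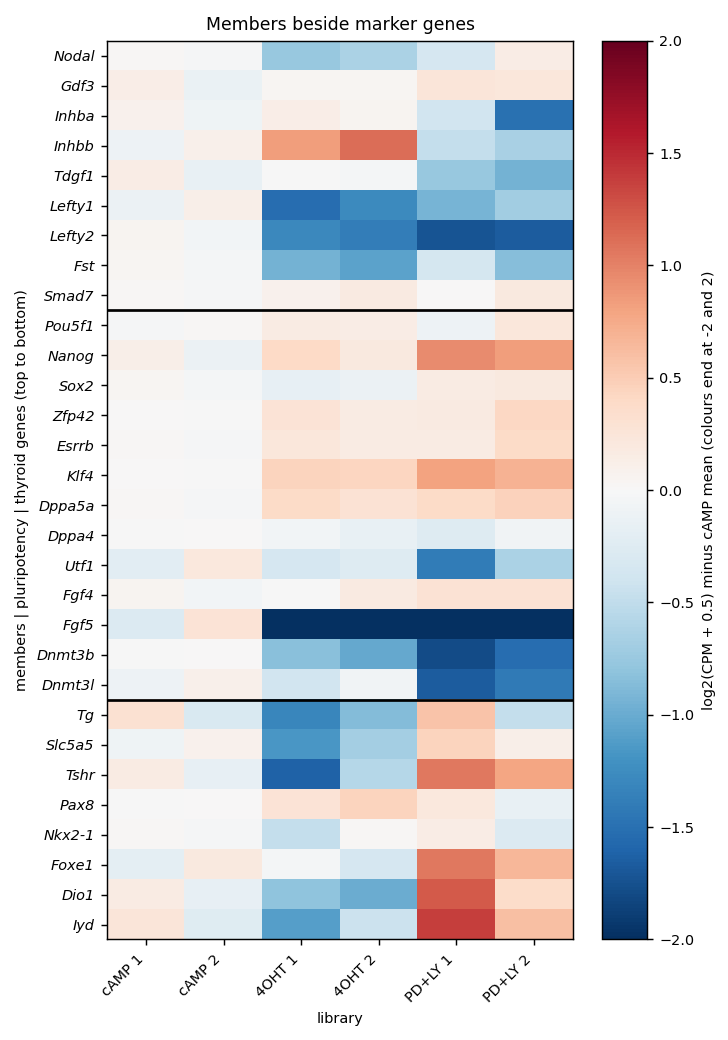
Log2(CPM + 0.5) of 9 members (top), 13 pluripotency markers (middle) and 8 thyroid markers (bottom) in the 6 libraries, as the difference from the mean of the cAMP libraries; blue is lower, red higher, and colours end at -2 and 2. Lefty1, Lefty2 and Fst are blue in 4OHT where most pluripotency genes are pale, with Fgf5 and Dnmt3b as exceptions, and Tg, Slc5a5, Tshr, Dio1 and Iyd are blue in 4OHT as well.

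Cer1 is a marker of visceral and definitive endoderm, and other markers of these tissues are set beside it. Of 8 visceral endoderm markers 5 were above the floor in every library, and their summed level was 511 to 535 CPM in cAMP, 490 to 551 in 4OHT and 493 to 497 in PD+LY, most of it from Ttr. Ttr was higher in PD+LY (0.49 against 4OHT and 0.35 against cAMP, edgeR adjusted p = 0.0018 and 0.00962), while the list had a median log2 fold change of -0.05 when 4OHT was compared with cAMP, and of -1.12 (4OHT) and -1.28 (cAMP) when PD+LY was compared with each. Amn, Rbp4 and Trf were DEGs lower in PD+LY than in 4OHT, and Afp, Amn and Apoa1 were DEGs lower in PD+LY than in cAMP. Of all tested genes 4.9% and 6.24% were DEGs lower in these comparisons. Afp was scarce, with 9 and 20 counts of Afp in cAMP, 4 and 2 in 4OHT, and 2 and 0 in PD+LY. Apoa1 was scarce as well, with 13 and 19 counts, then 6 and 4, then 2 and 4. Markers near the floor also enter the medians of this list. For 7 endoderm and streak markers, of which Mixl1 is below the floor in 5 of the libraries, the summed level was 41.2 to 52.5 CPM in cAMP, 30.96 to 33.2 in 4OHT and 29.4 to 31.2 in PD+LY. In 4OHT against cAMP, where Cer1 was already below the floor, no gene of either list was a DEG, beside 2.67% of all tested genes. The lists hold 8 and 6 tested genes, too few for the lack of a DEG to say much at that share. The endoderm and streak list had a median log2 fold change of -0.59 in this comparison. The calls of Eomes, Gsc and T in PD+LY are given above. The part of a change in cell types in the fall of Cer1 was not tested.

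RefSeq promoter windows on GRCm38.p6 were available for Cer1, Nodal, Inhbb, Tdgf1 and Inhba. The 250 bases before the start of Cer1 (chr4:82885152-82885401, minus strand), Nodal (chr10:61417722-61417971, plus strand) and Inhbb (chr1:119422249-119422498, minus strand) are shown as the antagonist that fell most, the ligand that fell with it, and the ligand gene that was higher in 4OHT. Both strands were searched for AATNCACA, the letters of the Foxh1 motif, and for CAGAC and GTCTAGAC, which Smads can bind, and matches are in capitals. GTCTAGAC ends in TAGAC and so does not contain CAGAC.
Cer1: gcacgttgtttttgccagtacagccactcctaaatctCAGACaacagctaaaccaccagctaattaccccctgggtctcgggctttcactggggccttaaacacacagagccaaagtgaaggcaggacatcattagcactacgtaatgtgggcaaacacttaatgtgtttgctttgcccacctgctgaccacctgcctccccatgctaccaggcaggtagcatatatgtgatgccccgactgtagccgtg
Nodal: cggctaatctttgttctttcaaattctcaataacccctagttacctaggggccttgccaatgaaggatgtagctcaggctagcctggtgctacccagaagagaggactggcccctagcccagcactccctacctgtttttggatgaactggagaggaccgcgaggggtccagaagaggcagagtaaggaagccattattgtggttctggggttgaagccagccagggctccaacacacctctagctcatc
Inhbb: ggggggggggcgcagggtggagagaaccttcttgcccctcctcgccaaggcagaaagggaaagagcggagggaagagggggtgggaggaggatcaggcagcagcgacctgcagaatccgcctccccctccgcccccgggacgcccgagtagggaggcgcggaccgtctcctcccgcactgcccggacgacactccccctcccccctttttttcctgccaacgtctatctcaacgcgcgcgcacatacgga

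CAGAC occurred once in the Cer1 window, 213 bases before the start, and once in that of Tdgf1, and not in those of Nodal, Inhbb and Inhba, while 42.2% of all 32851 windows hold it. AATNCACA (3.18% of all windows) and GTCTAGAC (0.167%) occurred in none of the 5. The windows differed in base composition, with 68.0% G and C for Inhbb, 53.2% for Nodal and 51.6% for Cer1.

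The genes whose log2 CPM followed the members most closely over the 6 libraries were found among the tested genes with a range of at least 1 on the log2 scale. For Cer1 these were Arl4c, Cend1 and Fgf5 (Pearson's r over the 6 libraries 0.999, 0.994 and 0.994), for Lefty2 Tub, Dtna and Tal1 (0.998, 0.998 and 0.996), for Lefty1 they included Stat4 and Dok5 (0.990 and 0.985) and for Nodal Gm4285, Zcchc12 and H2-T10 (0.986, 0.980 and 0.980). Inhbb was most like Krt7, S100a13 and Lgals3 (0.999, 0.999 and 0.991), a keratin, an S100 protein and galectin-3. Inhba was most like Nod2, Fa2h and Calcrl, Fst like Nlgn3, Cyp26a1 and Lrrn1, and Tdgf1 like Tm4sf1, Itih3 and 4930579G18Rik. No gene stood among the first 3 of more than 1 member. The values are the highest of 4746 or 4747 candidates over 6 libraries that share 3 groups, and are given as a description.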

How the data were processed

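Poly(A) RNA of pooled organoids was sequenced from stranded TruSeq libraries. The authors trimmed the reads with Trimmomatic, aligned them to mm10 with HISAT2 and counted them with HTSeq, ignoring strand, and they deposited these raw counts; tool versions, the annotation and the treatment of reads with several hits are not given in the sources used here. Nothing had been normalized.

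The deposited counts were tested with edgeR 4.0.16 (R 4.3.3, limma 3.58.1) by its quasi-likelihood test over all 6 libraries with 3 groups, TMM factors, and the filter of filterByExpr (15256 of 25239 genes passed a minimum count of 10 and a minimum total of 15). The common biological coefficient of variation was 0.105. A DEG changed at least 2-fold with a Benjamini-Hochberg adjusted p under 0.05, the limits used in the study. DESeq2 1.42.0, RLE factors, 2 other filters, a fit of 2 groups, a replicate block and the omission of each library were alternatives. The code was tested on simulated data. The members and lists were chosen with earlier results of these data known. Every member is named, and so are the 3 genes most like each member. Of the other pathway genes the DEGs, the core receptors and Smads with Foxh1, and Otx2 are named. The marker lists are described by their sums, with their DEGs, defining genes or some genes that passed by adjusted p. Exon lengths and overlaps came from GENCODE M21, promoter windows from RefSeq, and Lefty identity from Biopython 1.88. The interval for Cer1 is Clopper-Pearson's at 95%. The Braf transcript does not check the group labels, since 4OHT activates the protein. A few genes that these rules would name are not reported here.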

Additional observations from a re-analysis of the deposited data

How the results depend on the processing

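Of the recomputed log2 fold changes of named genes, 530 kept their direction and their side of the DEG thresholds, 24 were no longer past them, 8 newly passed them, and 5 changed sign. Where a library was left out, the lone library of its group was assumed to vary like the others. In 4OHT against cAMP the members counted 4 DEGs, 5 with RLE factors, DESeq2 or 2 groups alone, 3 with at least 10 counts in every library (which removes Cer1), 6 by adjusted p alone, and 3 to 5 when a library was left out. In PD+LY against 4OHT they counted 1, 6 by adjusted p alone, and 1 to 2 when a library was left out, and in PD+LY against cAMP 2, 7 by adjusted p alone, 1 with at least 10 counts in every library, and 2 to 3 when a library was left out. The wider pathway genes counted 3, 5 and 11 in the 3 comparisons, 10, 18 and 24 by adjusted p alone, and 1 to 4, 3 to 6 and 7 to 12 when a library was left out, the lowest without 4OHT library 1, 4OHT library 2 and cAMP library 1. With at least 10 counts in every library the first was 0 (edgeR, 10 by adjusted p alone in the main filter), since Cfc1, Fgf8 and Lhx1 are removed. Over all genes the counts were 408, 1107 and 1409, then 1280, 3469 and 3925 by adjusted p alone, and 164 to 487, 632 to 1176 and 1118 to 1391 when a library was left out. The first was 268 without cAMP library 1, 164 without 4OHT library 1 and 221 without 4OHT library 2, and the second 632 without 4OHT library 2. The log2 fold changes whose sign turned when a library was left out had not passed the test. Those of 4OHT against cAMP were Tdgf1 (-0.17 to 0.13, positive without cAMP library 1) and Gdf3 (-0.079 to 0.17, negative without cAMP library 2). Smad7 in PD+LY against 4OHT ran from -0.14 to 0.059 (positive without PD+LY library 1 or 4OHT library 2), and Nodal in PD+LY against cAMP from -0.35 to 0.15 (positive without PD+LY library 1). The cause was not tested.

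Libraries of different groups share only a number. With the replicate number as a block the members counted 4, 2 and 2 DEGs (Inhba joining in PD+LY against 4OHT, at -1.03), the wider genes 4, 5 and 11, and all genes 513, 1222 and 1481. Deviations from the group means of libraries with the same number correlated at 0.199 (cAMP and 4OHT), 0.531 (cAMP and PD+LY) and 0.113 (4OHT and PD+LY) over 9849 genes. Depth limits Cer1, Cfc1, Fgf8, Lhx1 and T, whose counts in 4OHT or PD+LY were near the floor.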

Other observations

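Markers of cell types that the report did not describe are given here as values. For endothelium, 5 of 6 markers were above the floor in every library. Cdh5, Kdr and Tie1, which are receptors and an adhesion molecule of vessels, were DEGs lower in 4OHT than in cAMP, beside 1.51% of all tested genes. The median log2 fold change of the list was -1.47, while its summed level was 157 to 166 CPM in cAMP, 179 to 180 CPM in 4OHT and 163 to 168 CPM in PD+LY. Most of that sum was Pecam1, with 135 and 128 CPM in cAMP against 8.37 and 7.55 for Cdh5, so the sum follows Pecam1 and not the list. Pecam1 was higher in 4OHT than in cAMP (0.36, edgeR adjusted p = 0.0271). Kdr and Tie1 were also DEGs lower in PD+LY than in cAMP (-1.65 and -2.62), where 6.24% of all tested genes were. For neural progenitors, also with 5 of 6 markers above the floor, the sums were 53.5 to 54.1 CPM, 45.4 to 53.2 CPM and 65.3 to 70.95 CPM, with Pax6 and Nes higher in PD+LY than in cAMP (0.69 and 0.51, edgeR adjusted p = 0.00601 and 0.0204). Sox1 was a DEG lower in 4OHT than in cAMP (-1.29), and Sox1 and Fabp7 were DEGs lower in PD+LY than in cAMP (-1.66 and -2.51).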
